A study of Mus musculus with 4 samples.

Results

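The Regnase, Roquin and ZFP36 proteins bind messenger RNA in its 3′ untranslated region (UTR) and mark it for decay. The transcripts of 9 such genes were examined among the 54532 genes of the count table, and each was found by its exact gene name. They comprised 4 Regnase genes (Zc3h12a, Zc3h12b, Zc3h12c and Zc3h12d), 2 Roquin genes (Rc3h1 and Rc3h2) and 3 ZFP36 genes (Zfp36, Zfp36l1 and Zfp36l2). The family was chosen by the counts of Zc3h12c, which were strongly lower in tumor-bearing mice in these same libraries. Member values in the 2 groups are therefore a description. No p-value is printed for a member, and whether a member passed the test is stated to count members and to show where that depends on a library or setting, not as support for a change.

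The cells were alveolar macrophages (AMs), phagocytes that live in the airspace, purified from the lungs of female wild-type mice and profiled in bulk by RNA-seq. The Control group held 2 libraries from mice that received no tumor cells. The Tumor group held 2 libraries from mice that had carried 4T1 tumors for 2 weeks, 4T1 being a mammary carcinoma line that seeds the lung. By the methods of the study the wild-type mice were young adults on a BALB/c background, the labels name no other allele or agent for either group, and the tumor cells were placed in the mammary fat pad. The model therefore rests on 1 tumor line in 1 strain and 1 sex, at 1 time point. The labels do not say whether the libraries of a group came from separate mice, so the p-values below measure only the spread between these libraries, which may be technical.

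In macrophages, a stimulus through Toll-like receptors or cytokine receptors induces many short-lived transcripts for cytokines and chemokines. Regnase-1, encoded by Zc3h12a, is an endonuclease of the PIN/NYN type that cuts stem-loops in the 3′ UTRs of such transcripts, and Roquin proteins bind overlapping stem-loops and recruit the deadenylase. ZFP36 (tristetraprolin) and its paralogs instead bind AU-rich elements and recruit the same deadenylase. The transcripts of several of these regulators carry such elements themselves, which allows the proteins to act on their own messages.

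Library totals ranged from 16167147 to 19205737 counts. Values are given as CPM (counts scaled to a common library size, with TMM as a correction for composition) or, where genes are compared with each other, as TPM (which also divides by gene length). All 12 AM identity genes were detected in every library, which fits the labelled cell type, but their summed level was 14601 to 14711 CPM in Control and 10364 to 10538 CPM in Tumor, and all 12 were lower in Tumor. Most markers of other cells moved the other way. The 10 neutrophil genes summed to 49.9 to 50.0 CPM in Control and 3713 to 3741 CPM in Tumor, with Elane at 0 in Control, and all 10 were higher. The 5 eosinophil genes rose from at most 0.507 CPM to at least 2204 CPM, with Prg3 at 0 in Control, and the 6 basophil and mast cell genes from at most 0.317 CPM to at least 64.0 CPM, with Mcpt8, Ms4a2, Fcer1a and Prss34 at 0. All 10 hepatocyte genes were higher in Tumor, at 693.5 to 701.4 CPM against at most 0.444 CPM, with Alb, Ahsg, Ttr, Apob, Fgb and Apoc3 at 0 in Control. Of the other lists, 5 of 6 tested lymphocyte genes and 4 of 6 monocyte and dendritic cell genes were higher and 1 of the latter was lower, with sums of 19.4 to 21.8 and 35.5 to 36.7 CPM in Tumor against 5.71 to 6.02 and 11.0 to 11.8 CPM in Control. For imaging, the study gated AMs as CD11b- CD11c+ SiglecF+ leukocytes, a gate that would remove CD11b+ neutrophils. Its results name imaging and RNA-seq together as uses of isolated AMs. Its methods say of the RNA-seq cells only that they were purified, so their gate is not stated directly. The part of these other cells in the results below was not tested, and in bulk RNA fewer cells of a type and less RNA per cell cannot be told apart.

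Of the 9 members, 8 had enough counts to be tested and Zc3h12b did not. All 8 passed an adjusted p of 0.05 in edgeR's quasi-likelihood test, 5 of them higher and 3 lower in Tumor. Across all 14256 genes tested, 53.8% passed, 29.0% higher and 24.8% lower, and since Zc3h12c chose the family nothing is read from the count of members. The 8 tested members had groups that did not overlap, as did 75.1% of all genes tested. Their median log2 fold change was 0.34, against 0.02 for all genes tested.

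Zc3h12c, which encodes Regnase-3, had the strongest fall of the family and is the gene on which it was chosen. Its level was 394.2 and 384.7 CPM in the Control libraries and 48.4 and 50.0 CPM in the Tumor libraries, from 7390, 6072, 839 and 982 counts. Both Tumor libraries lay far below both Control libraries, and the libraries of a group lay close together. The mean fell from 389.5 ± 6.73 to 49.2 ± 1.13 CPM (SD, n = 2 each), a log2 fold change of -2.98 ± 0.0381 (SE), so the Tumor level was 7.91-fold lower. By TPM, Zc3h12c stood at the 93.8th percentile of tested genes in Control and at the 60.6th in Tumor. Over the 12 alternative fits its log2 fold change ranged from -3.01 to -2.33.

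Zc3h12c (ENSMUSG00000035164) is encoded on chromosome 9 (minus strand, 52111344 to 52168572, GRCm38), and RefSeq gives it 2 transcription starts. The sequence before each start is shown because this gene had the largest change of the family, and the windows differ in composition. The 250 bases before the upstream start, at 52168406, were 76.4% G and C and held 33 CpG, against medians of 52.4% and 6 over 32851 RefSeq promoter windows. Only the 84 bases of that window that lie before the GENCODE exon are printed. The window before the internal start, at 52149363, was 48.0% G and C and held 3 CpG. It held 1 match to the core of the metal response element (TGCACNC or TGCGCNC, searched on both strands) from -217 to -211, shown in capitals, and the window before the upstream start held none. Such a match occurred in 21.4% of all windows. The motifs were chosen with the values known, a match is a description of letters only, and the data do not tell from which start the transcripts came. The sequences are given 5′ to 3′ on the minus strand (GRCm38.p6).
Zc3h12c upstream start, chr9:52168573-52168656: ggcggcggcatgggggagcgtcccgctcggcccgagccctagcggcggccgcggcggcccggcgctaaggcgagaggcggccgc
Zc3h12c internal start, chr9:52149364-52149613: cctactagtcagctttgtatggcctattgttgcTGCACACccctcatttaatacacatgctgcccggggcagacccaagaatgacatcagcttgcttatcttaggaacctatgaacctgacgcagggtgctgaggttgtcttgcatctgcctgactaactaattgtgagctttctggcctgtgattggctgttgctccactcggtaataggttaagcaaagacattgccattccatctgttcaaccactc

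Zc3h12a (ENSMUSG00000042677, chromosome 4, 125118423 to 125127840), which encodes Regnase-1, is the member best known for limiting Il6 mRNA. It measured 479.3 and 489.7 CPM in Control and 317.8 and 321.8 CPM in Tumor. The groups did not overlap, and the Tumor libraries were lower by close to the same amount. The mean fell from 484.5 ± 7.30 to 319.8 ± 2.79 CPM (SD, n = 2 each), a log2 fold change of -0.60 ± 0.0267 (SE). This fall was relative to TMM scaling. When libraries were scaled on the AM identity genes instead, the median of all tested genes moved up by 0.65 on the log2 scale. The log2 fold change of Zc3h12a was then 0.05 and no longer passed the threshold, and that of Zc3h12c stayed at -2.33. The 12 AM identity genes themselves changed unevenly, from -0.16 (Siglecf) to -2.13 (Fabp4), with a median of -0.47. The size of the shift therefore depends on which of them are used.

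The other Regnase genes were expressed at low levels. Zc3h12d (ENSMUSG00000039981, chromosome 10, 7832470 to 7870396) encodes Regnase-4, known mainly from lymphocytes, and had 103 and 71 counts in Control and 181 and 216 in Tumor. These correspond to 5.49, 4.50, 10.5 and 11.0 CPM. Both Tumor libraries were higher than both Control libraries, with a log2 fold change of 1.09 ± 0.161 (SE). Zc3h12b (ENSMUSG00000035045, X chromosome, 95711678 to 95932637), which encodes Regnase-2, had 4 and 7 counts in Control and 1 and 10 in Tumor. Its groups overlapped, and a difference was not detectable at this depth.

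**Figure D1:**
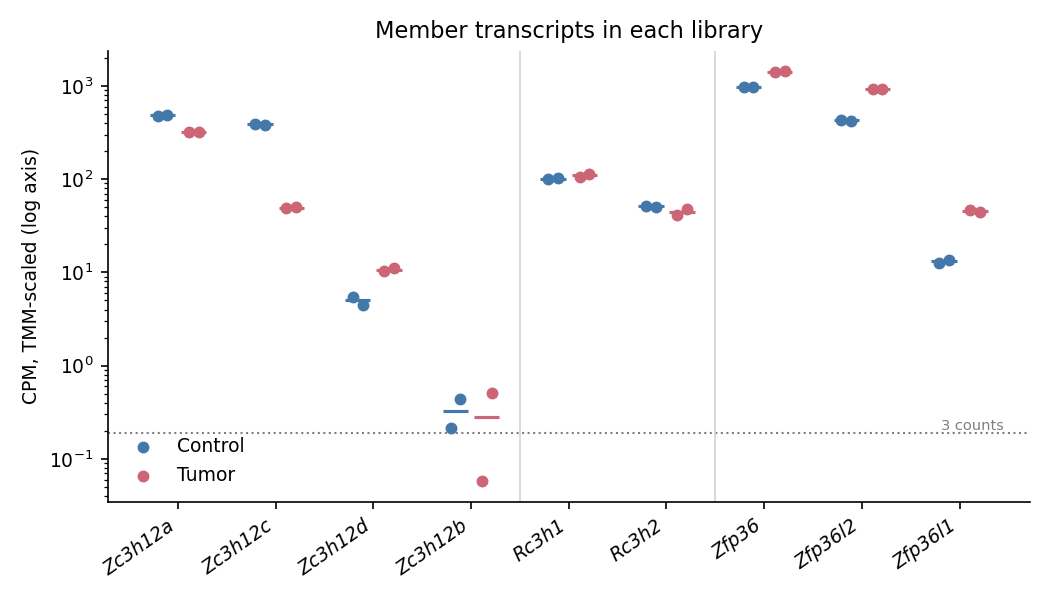
Level of each member in each of the 4 libraries, as TMM-scaled CPM on a log axis, with a short line at each group mean and a dotted line at 3 counts in the library with the highest such value (0.190 CPM). Zc3h12c drops from 384.7 to 394.2 CPM in Control to 48.4 to 50.0 CPM in Tumor, the 3 ZFP36 genes on the right are higher in both Tumor libraries, and Zc3h12b lies near the dotted line.

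Because Zc3h12c fell further than Zc3h12a, the makeup of the Regnase transcripts differed between the groups, and shares within a family do not depend on how libraries are scaled. Summed over the 4 genes, Regnase transcripts amounted to 714.1 and 716.5 TPM in Control and 381.2 and 389.1 TPM in Tumor. The sum was 1.86-fold lower in Tumor, a log2 ratio of -0.89. This exceeds the shift of 0.65 that scaling on the AM identity genes brings. However, the sum includes Zc3h12c, the gene on which the family was chosen, so nothing is read from that. Zc3h12a, the larger part of the sum, had a log2 fold change of 0.05 under that scaling. Zc3h12c made up 25.1% ± 0.590 of this sum in Control and 5.95% ± 0.0740 in Tumor (SD, n = 2 each). Zc3h12a made up 74.3% ± 0.660 and 91.8% ± 0.163, and Zc3h12d went from 0.540% ± 0.0794 to 2.17% ± 0.0567 of the sum. In each library the TPM of Zc3h12a was divided by that of Zc3h12c, which gave 2.89 and 3.02 in Control and 15.6 and 15.3 in Tumor.

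With TMM scaling, Roquin transcripts differed little between the groups. Rc3h1 (ENSMUSG00000040423, chromosome 1, 160906418 to 160974978) encodes Roquin-1 and measured 99.5 and 103.2 CPM in Control and 106.1 and 114.6 CPM in Tumor. Rc3h2 (ENSMUSG00000075376, chromosome 2, 37370069 to 37422903) encodes Roquin-2 and measured 51.8 and 50.6 CPM in Control and 41.3 and 48.4 CPM in Tumor. Neither pair of groups overlapped, but the gap between groups was narrower than the distance between the Tumor libraries. The log2 fold changes were 0.13 ± 0.0466 (SE) for Rc3h1 and -0.19 ± 0.0726 (SE) for Rc3h2. Both calls were lost under DESeq2, at 0.12 and -0.19, and also when Control library 1 was left out, at 0.10 and -0.17. Rc3h1 was not called without Tumor library 2 (0.07) or without a filter on low counts (0.11), and Rc3h2 was not called without Tumor library 1 (-0.08), with total counts as library sizes (-0.12) or with at least 10 counts in every library (-0.16). Scaled on the AM identity genes, Rc3h1 moved to 0.78 and the direction of Rc3h2 turned, to 0.46. The Roquin sum was 36.6 ± 0.443 TPM in Control and 38.4 ± 2.67 TPM in Tumor, with Rc3h1 at 77.4% ± 0.745 and 81.0% ± 0.893 of it (SD, n = 2 each).

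All 3 ZFP36 genes were higher in Tumor, by different amounts. Zfp36 (ENSMUSG00000044786, chromosome 7, 28376784 to 28380253), which encodes tristetraprolin and restrains Tnf mRNA, measured 968.8 and 977.3 CPM in Control and 1407 and 1434 CPM in Tumor. Zfp36l2 (ENSMUSG00000045817, chromosome 17, 84183931 to 84187947) measured 431.6 and 421.2 CPM in Control and 930.1 and 927.6 CPM in Tumor. Zfp36l1 (ENSMUSG00000021127, chromosome 12, 80107754 to 80113013) measured 12.7 and 13.6 CPM in Control and 47.2 and 44.9 CPM in Tumor. In each case the Tumor libraries lay well above the Control libraries and close to each other. The log2 fold changes were 0.55 ± 0.0196 (SE) for Zfp36, 1.12 ± 0.0232 for Zfp36l2 and 1.81 ± 0.0893 for Zfp36l1, the last a 3.50-fold higher level. Over the 12 alternative fits they ranged from 0.53 to 1.20, from 1.10 to 1.78 and from 1.76 to 2.46.

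Summed over the 3 genes, ZFP36 transcripts amounted to 1286 and 1278 TPM in Control and 2177 and 2209 TPM in Tumor, 1.71-fold higher in Tumor. Zfp36l2 went from 381.9 to 838.7 TPM and Zfp36 from 886.4 to 1305 TPM, and the share of Zfp36l2 in the sum went from 29.8% ± 0.508 to 38.2% ± 0.321 (SD, n = 2 each). The share of Zfp36 went from 69.1% ± 0.454 to 59.5% ± 0.416, although its level rose, and Zfp36l1 stayed a small part, at 1.09% ± 0.0543 and 2.24% ± 0.0948. The TPM ratio of Zfp36 to Zfp36l2 was 2.28 and 2.36 in Control and 1.54 and 1.57 in Tumor. The gene length used for Zfp36, 3470 bases, covers its whole locus, introns included. Levels and shares compared between genes depend on such lengths, whereas the fold by which a ratio differs between the groups does not. With Regnase transcripts lower and ZFP36 transcripts higher, all 9 members together summed to 2034 ± 3.14 TPM in Control and 2617 ± 31.4 TPM in Tumor. Zc3h12c was 8.84% ± 0.173 of that sum in Control and 0.876% ± 0.0132 in Tumor, and Zfp36l2 was 18.8% ± 0.369 and 32.1% ± 0.316 (SD, n = 2 each).

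**Figure D2:**
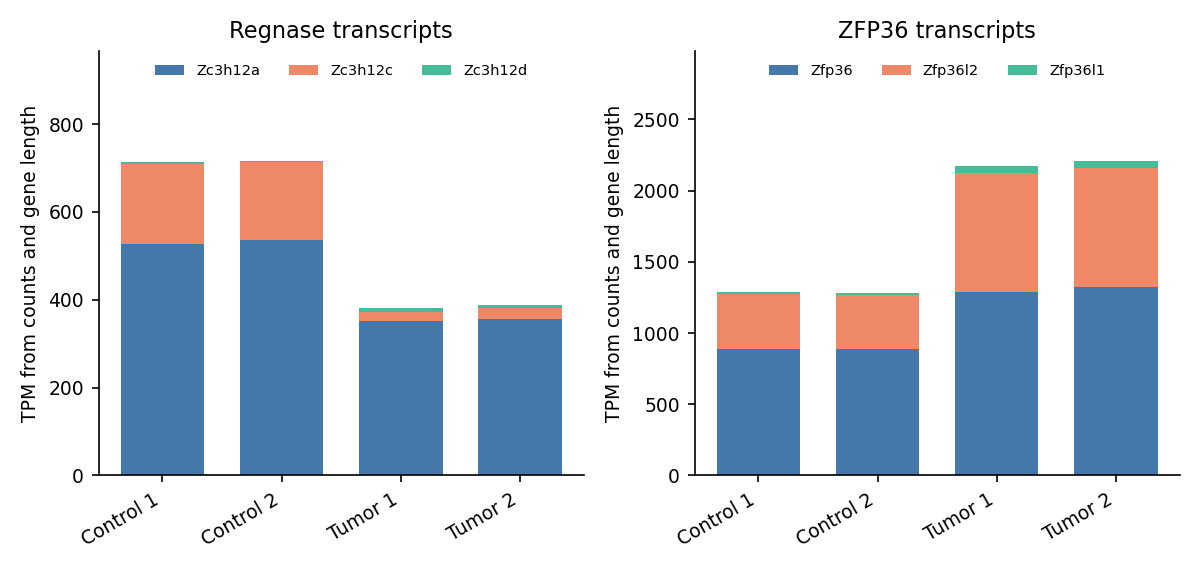
Stacked TPM of the Regnase genes (left) and the ZFP36 genes (right) in each library, with both axes starting at 0 and Zc3h12b left out because its bar would not be visible. The Regnase bars are shorter in Tumor (381.2 and 389.1 against 714.1 and 716.5 TPM) and nearly lack the Zc3h12c block, and the ZFP36 bars are taller (2177 and 2209 against 1286 and 1278 TPM).

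By TPM, the order of the members in Control ran from Zfp36 (886.4 ± 2.17) over Zc3h12a (531.4 ± 5.98), Zfp36l2 (381.9 ± 8.09) and Zc3h12c (179.9 ± 3.79) to Rc3h1 (28.3 ± 0.615), followed by Zfp36l1 (13.9 ± 0.639), Rc3h2 (8.24 ± 0.172), Zc3h12d (3.86 ± 0.559) and Zc3h12b (0.129 ± 0.0636). In Tumor it ran from Zfp36 (1305 ± 22.9) over Zfp36l2 (838.7 ± 1.81), Zc3h12a (353.7 ± 4.55) and Zfp36l1 (49.1 ± 1.56) to Rc3h1 (31.1 ± 1.82), followed by Zc3h12c (22.9 ± 0.620), Zc3h12d (8.36 ± 0.341), Rc3h2 (7.29 ± 0.849) and Zc3h12b (0.113 ± 0.127). In neither group did the values of neighbours in this order overlap (SD over n = 2 libraries for every level). Zc3h12c thus went from the fourth place to the sixth, below Rc3h1, and Zfp36l1 from the sixth place to the fourth. Zfp36l2 passed Zc3h12a.

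**Figure D3:**
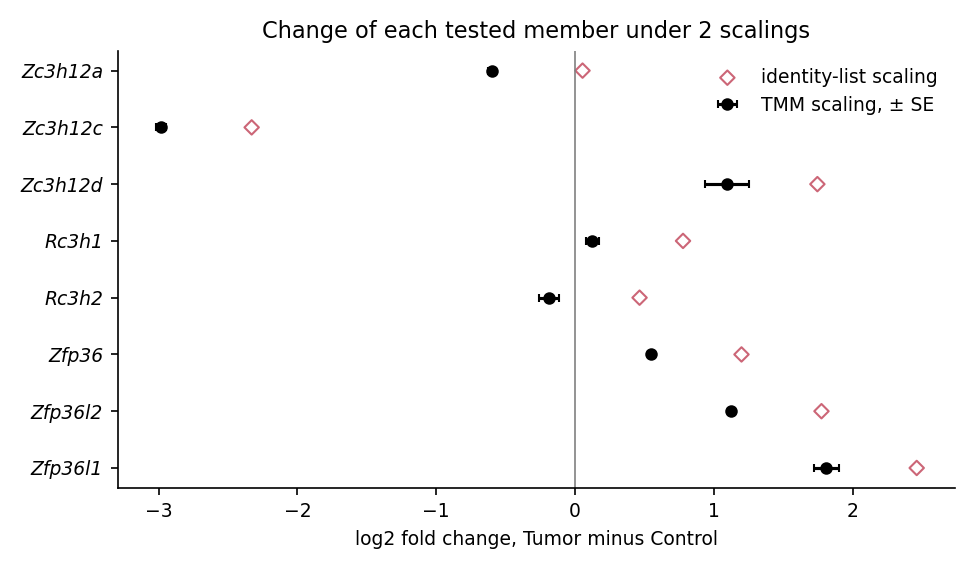
Log2 fold change of each tested member, Tumor minus Control, with TMM scaling (filled points, bars are ± SE, hidden where smaller than the point) and with scaling on the AM identity genes (open diamonds). Zc3h12c stays far to the left under both, Zc3h12a moves from -0.60 to 0.05, Rc3h2 moves from -0.19 to 0.46, and the 3 ZFP36 genes and Zc3h12d stay to the right.

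The AU-rich sites of the members' own 3′ UTRs are shown because this element is what ZFP36 proteins bind, and because the members differ in it. The nonamer TTATTTATT occurred 1 time each in the longest annotated 3′ UTR of Zfp36, Zfp36l1, Zfp36l2, Rc3h1 and Rc3h2 (GENCODE, GRCm38), and in none of the Regnase genes. Its inner heptamer TATTTAT, which overlaps the nonamer, occurred 3 times each in Zfp36, Zfp36l1, Zfp36l2 and Rc3h2, 2 times in Rc3h1 and Zc3h12c, and 0 times in Zc3h12a, Zc3h12b and Zc3h12d. Of 12169 tested genes with a 3′ UTR, 29.7% had the heptamer. Lengths differed, since 3 heptamers lay within 774 bases in Zfp36 and within 5331 bases in Rc3h2, and the 2 of Zc3h12c within 4062 bases. Tnf, the reference target of tristetraprolin, is shown for comparison, and its nonamers overlap each other. The sites are given 5′ to 3′ on the strand of the gene, with the nonamer, or for Zc3h12c the heptamer, in capitals.
Zfp36, chr7:28376952-28376978, minus strand: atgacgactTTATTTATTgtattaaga
Zfp36l1, chr12:80108168-80108194, minus strand: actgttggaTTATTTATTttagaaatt
Zfp36l2, chr17:84184915-84184941, minus strand: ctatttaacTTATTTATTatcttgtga
Rc3h1, chr1:160970044-160970070, plus strand: ctttactcaTTATTTATTgagatgagg
Rc3h2, chr2:37373288-37373314, minus strand: aaagacattTTATTTATTttactctgt
Zc3h12c proximal, chr9:52114863-52114889, minus strand: ctataatcatTATTTATaggaacaaag
Zc3h12c distal, chr9:52111984-52112010, minus strand: gacagtaataTATTTATaaaacaatat
Tnf, chr17:35199690-35199716, minus strand: ttgcacttaTTATTTATTatttattta

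The members with the nonamer were the ZFP36 genes, which were higher, and the Roquin genes, with log2 fold changes of 0.13 and -0.19. Zc3h12d was higher too and had neither word. The largest fall, that of Zc3h12c, belonged to a gene with the heptamer and without the nonamer. The words are matches of letters in annotated UTRs, and whether a given site was present in the transcripts of these cells was not measured.

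The promoter window of Zfp36l1, the member with the largest rise, is shown beside that of Zc3h12c. It held 1 match each to the TATA box (TATAAA, -29 to -24), the AP-1 site (TGANTCA, -129 to -123) and the metal response element core (-15 to -9), in capitals below, and the matches do not overlap. These motifs occurred in 12.4%, 6.75% and 21.4% of all RefSeq windows of 250 bases, searched on both strands. The core of the xenobiotic response element, GCGTG, to which the aryl hydrocarbon receptor binds, occurred in 28.2% of windows. Among the members it had 3 matches in Rc3h1, from -94 to -52, and 1 each in Zc3h12a, Zc3h12d, Rc3h2 and Zfp36, where the window of Zfp36 lies wholly within a GENCODE exon, and none in Zc3h12c, Zc3h12b or Zfp36l1. RefSeq windows matched 8 of the 9 members, and Zfp36l2 was the other.
Zfp36l1, chr12:80113014-80113263, minus strand, GRCm38.p6: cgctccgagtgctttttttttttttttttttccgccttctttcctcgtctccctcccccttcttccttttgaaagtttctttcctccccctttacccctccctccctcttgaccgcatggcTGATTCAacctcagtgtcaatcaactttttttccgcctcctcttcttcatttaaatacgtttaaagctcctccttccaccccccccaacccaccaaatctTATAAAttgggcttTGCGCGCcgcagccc

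The proteins that control the activity of Regnases were examined next, with 11 genes in the list. By edgeR, 3 were higher and 6 lower in Tumor at an adjusted p of 0.05, and 2 did not pass, with a median log2 fold change of -0.33. Scaled on the AM identity genes, 7 were higher and 3 lower, with a median of 0.32. Malt1, the paracaspase that cleaves Regnase-1 and Roquins, had 13885 and 11045 counts in Control and 3537 and 4146 in Tumor. It fell from 720.3 ± 28.9 to 207.8 ± 4.98 CPM (SD, n = 2 each), a log2 fold change of -1.79 ± 0.0297 (SE; adjusted p = 3.10e-27, edgeR). Bcl10, an adaptor that binds Malt1, and Card9, which acts with it in myeloid cells, rose by 0.17 and 0.11. Card9 passed narrowly (adjusted p = 0.0455, edgeR), and the number of genes higher in this list was 2 in place of 3 without any 1 of the libraries and under DESeq2 and limma-voom. Ikbke and Tbk1, kinases that phosphorylate Regnase-1, changed by -1.20 ± 0.0859 and -0.56 ± 0.0368 (SE), and Tank, an adaptor of these kinases, by -0.80 ± 0.0473. Usp10, a deubiquitinase, changed by -0.33 ± 0.0824. Arid5a, which protects Il6 mRNA from Regnase-1, moved the other way. It had 97 and 101 counts in Control and 697 and 862 in Tumor, and rose from 5.79 ± 0.866 to 42.1 ± 2.60 CPM, a log2 fold change of 2.87 ± 0.113 (SE; adjusted p = 2.04e-18, edgeR).

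The p38 pathway, which phosphorylates and inactivates ZFP36 proteins, held 7 listed genes, of which 3 were higher and 4 lower by edgeR (median log2 fold change -0.25). Dusp1, the phosphatase that switches p38 off, rose from 730.9 ± 8.89 to 1506 ± 7.24 CPM (SD, n = 2 each; log2 fold change 1.04 ± 0.0201, adjusted p = 1.03e-25, edgeR). Mapk14, which encodes p38α, rose by 0.54 ± 0.0319 (SE). Mapkapk2 and Mapkapk3, the kinases that act on tristetraprolin below p38, changed by -0.54 ± 0.0266 and -0.25 ± 0.0354, and Map2k3, a kinase above p38, by -0.56 ± 0.0301. Map2k6, the other such kinase, rose from 7 and 8 counts in Control to 38 and 56 in Tumor, a log2 fold change of 2.52 ± 0.409 at low counts. Ppp2ca, the catalytic subunit of the phosphatase that counters this phosphorylation, changed by -0.45 ± 0.0273. Relative to TMM scaling, this list held both rises and falls, whereas with scaling on the AM identity genes all 7 were called higher (median 0.40).

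The relatives of Regnase with an NYN nuclease domain split as well. Khnyn, a cofactor of the zinc-finger antiviral protein, rose from 38.8 ± 1.07 to 83.7 ± 2.72 CPM (SD, n = 2 each; log2 fold change 1.11, adjusted p = 3.02e-15, edgeR). N4bp1 fell from 333.6 ± 3.51 to 218.6 ± 9.50 CPM (log2 fold change -0.61, adjusted p = 1.58e-15, edgeR). Scaled on the AM identity genes, 1 of the pair was called, higher, so that the fall of N4bp1 was not called under that scaling. With DESeq2 size factors and with total counts as library sizes, 2 were called and 1 of them was higher, as with TMM.

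Most changes in the decay machinery that these proteins recruit were small. Of 17 genes of the CCR4-NOT and PAN deadenylases and their adaptors, 10 were higher, 3 lower and 4 did not pass (edgeR), with a median log2 fold change of 0.17. Scaled on the AM identity genes, 14 were higher and 0 lower (median 0.82), so that the falls of Tob1, Tob2 and Cnot4 given here were not called under that scaling. Other scalings kept some falls, since 8 of 11 called genes were higher with DESeq2 size factors and 12 of 15 with total counts as library sizes. The largest changes were in the BTG/TOB adaptors and not in the subunits. Btg2 rose from 163.8 ± 3.03 to 317.1 ± 1.62 CPM and Btg1 from 679.4 ± 2.48 to 1201 ± 1.02 CPM (SD, n = 2 each), while Tob1 fell from 262.2 ± 1.95 to 159.0 ± 0.714 CPM and Tob2 from 171.1 ± 0.111 to 104.2 ± 1.23 CPM. Their log2 fold changes were 0.95, 0.82, -0.72 and -0.72, with adjusted p of 4.86e-20, 4.81e-23, 5.81e-17 and 3.42e-15 (edgeR). Cnot1, the scaffold of the complex, gave no call (adjusted p = 0.825, edgeR), and Cnot4, an E3 ligase of it, changed by -0.60 ± 0.0841 (SE). Pan2 and Pan3, the other deadenylase, rose by 0.53 and 0.40.

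Of 15 decapping genes, including the 5′ exonuclease Xrn1, 10 did not pass, 2 were higher and 3 lower, with a median of -0.02. The number higher was 1 without Control library 1, 3 without Control library 2 and 4 without Tumor library 1. Edc3 rose by 0.44 and Lsm1 by 0.40, and Patl1, Xrn1 and Ddx6 fell, with log2 fold changes of -0.58, -0.27 and -0.17. Of 15 tested genes of the RNA exosome and its SKI helpers, 1 was higher, 6 lower and 8 did not pass, with a median of -0.12. Ttc37 and Dis3 fell, with log2 fold changes of -0.62 and -0.44, and Skiv2l rose by 0.24, and Exosc6 had 0 counts in all libraries. Of 10 genes of UPF1 and nonsense-mediated decay, with which Regnase-1 acts, 2 were higher and 5 lower (median -0.11). Upf1 itself fell from 109.0 ± 5.11 to 84.8 ± 2.13 CPM (SD, n = 2 each; adjusted p = 2.88e-07, edgeR), and Upf3b from 32.5 ± 0.671 to 19.5 ± 1.11 CPM (adjusted p = 5.75e-08, edgeR). Of 7 other proteins that bind AU-rich or 3′ end sequences, 2 were higher and 3 lower (median -0.08), with Tia1 at 0.55 and Pum2 at 0.17, and Khsrp, Elavl1 and Tial1 at -0.25, -0.24 and -0.18.

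Over the 8 lists of regulators and machinery, 55 of 84 tested genes passed (65.5%), 24 higher and 31 lower, against the 53.8% of all genes. Falls smaller than 0.65 on the log2 scale become rises when libraries are scaled on the AM identity genes, whose own falls differed widely. This applies to the medians of 6 of the 8 lists, those of the Regnase controls, p38 pathway, decapping, exosome, UPF1 and AU-binder genes. Under that scaling 14 of 15 decapping genes, 12 of 15 exosome genes, 8 of 10 UPF1 genes and 7 of 7 AU-binder genes were called, all of them higher. Malt1, Ikbke, Tank, Tob1, Tob2 and Upf3b fell by more than that shift, though none of the deadenylase and UPF1 genes was called lower under that scaling.

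**Figure D4:**
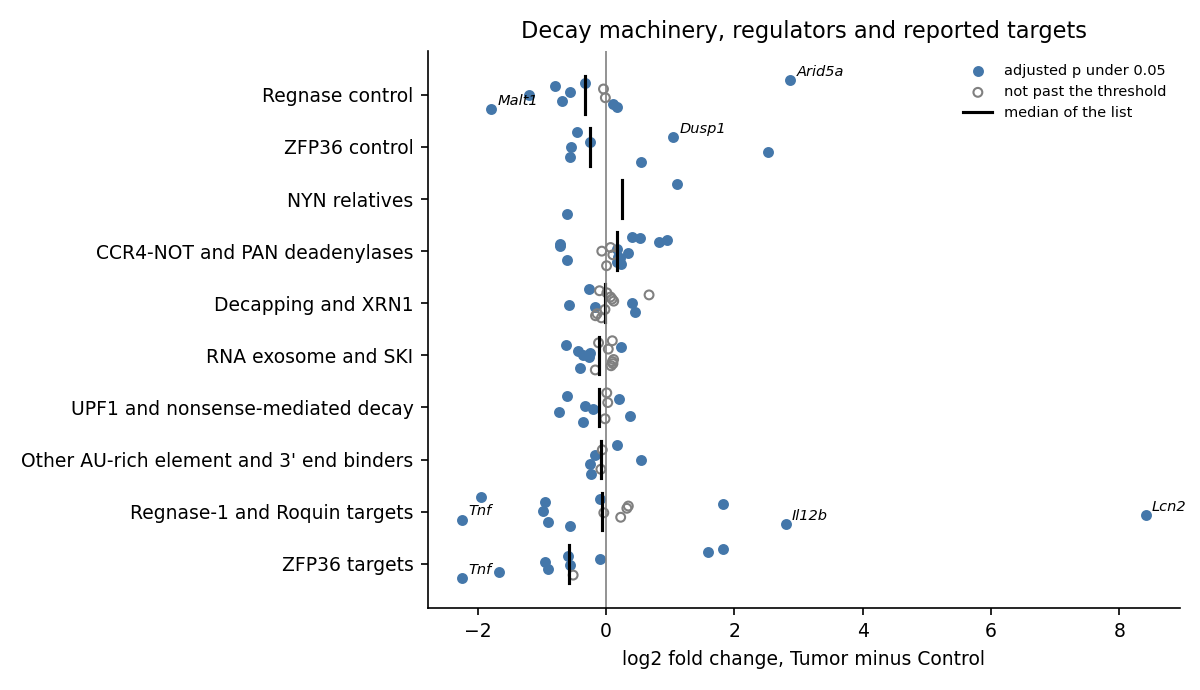
Log2 fold change, Tumor minus Control, of each tested gene of the regulator, machinery and target lists (filled where the adjusted p of edgeR was under 0.05, open where not), with a black bar at the median of each list. The machinery lists lie close to 0, Malt1 (-1.79) and Arid5a (2.87) stand apart among the Regnase controls, and the target lists spread from Tnf (-2.24) to Lcn2 (8.41).

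Transcripts known as targets were then examined. Of 14 tested targets of Regnase-1 or Roquin, 3 were higher, 7 lower and 4 did not pass (edgeR), with a median log2 fold change of -0.06. Of 10 tested ZFP36 targets, 2 were higher, 7 lower and 1 did not pass, with a median of -0.58. Both counts are relative to TMM scaling. Scaled on the AM identity genes, 8 Regnase-1 or Roquin targets were higher and 5 lower (median 0.59), and 4 ZFP36 targets were higher and 4 lower (median 0.08). The lists share Tnf, Il1b, Il6, Cxcl1, Cxcl2 and Ptgs2, so they are not separate evidence. Tnf had 37825 and 32351 counts in Control and 7485 and 8410 in Tumor. It fell from 2034 ± 22.6 to 430.4 ± 2.56 CPM (SD, n = 2 each), a log2 fold change of -2.24 ± 0.0205 (SE; adjusted p = 2.40e-33, edgeR).

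Other inflammatory targets fell with it. Cxcl3, a neutrophil chemokine, fell from 447.8 ± 0.887 to 115.8 ± 1.46 CPM, Cxcl1 from 1217 ± 11.7 to 627.7 ± 12.4 CPM, and Il1b from 2062 ± 27.1 to 1104 ± 16.1 CPM (SD, n = 2 each). Their log2 fold changes were -1.95 ± 0.0314, -0.96 ± 0.0216 and -0.90 ± 0.0189 (SE). Nfkbid, a nuclear inhibitor of NF-κB, and Il23a, which encodes a subunit of IL-23, fell as well (log2 fold changes -0.98 and -1.67), the latter from 9.66 ± 0.753 to 3.05 ± 0.499 CPM. Il6, the target after which Regnase-1 became known, changed from 59.9 ± 1.01 to 40.6 ± 2.89 CPM, a log2 fold change of -0.56 ± 0.0673 (SE; adjusted p = 4.30e-08, edgeR). Ccl3 changed by -0.59 ± 0.0242 and Cxcl2 by -0.09 ± 0.0151. Nfkbiz, whose mRNA is a Regnase-1 target too, was at 1031 ± 2.67 and 1007 ± 9.04 CPM (adjusted p = 0.165, edgeR). Il6, Ccl3 and Cxcl2 lie within the shift of 0.65 and the others named as falling do not.

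The targets that rose were Lcn2, Il12b, Ptgs2 and Ier3. Ptgs2, the inducible cyclooxygenase, had 632 and 536 counts in Control and 2150 and 2291 in Tumor, a log2 fold change of 1.83 ± 0.0562 (SE; adjusted p = 6.24e-21, edgeR). Ier3, an early response gene, rose from 31.6 ± 2.23 to 94.8 ± 1.66 CPM (SD, n = 2 each), and Il12b from 7 and 8 counts to 45 and 69. Lcn2 had 7 and 8 counts in Control and 2562 and 2985 in Tumor, a log2 fold change of 8.41 ± 0.117 (SE; adjusted p = 5.82e-29, edgeR). Lcn2 is also a granule gene of neutrophils, whose 10 markers summed to at least 3713 CPM in Tumor and at most 50.0 CPM in Control, and their part in this rise was not tested.

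The genes whose pattern over the 4 libraries was most like that of Zc3h12c were found by the distance between log2 CPM values, each centred on its own mean, among 8375 genes with at least 10 CPM on average. These were Mt2 (distance 0.177), Slc30a1 (0.214), Pdgfb (0.366) and Flrt3 (0.428). Mt2, a metallothionein, was at 22.6 and 22.3 CPM in Control and 2.48 and 2.40 CPM in Tumor. Slc30a1, a zinc exporter, was at 69.3 and 70.9 CPM in Control and 8.32 and 10.4 CPM in Tumor. Pdgfb, a growth factor, was at 77.0, 78.3, 12.9 and 11.8 CPM, and Flrt3, a membrane adhesion protein, at 42.0, 39.5, 5.66 and 7.44 CPM, in the same order. With 4 libraries, the likeness reflects the difference between the groups and no finer pattern.

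The genes that overlap members held few counts. Gm44710, antisense to Zfp36, had 12 and 7 counts in Control and 3 and 1 in Tumor, and Gm26669, antisense to Zfp36l1, had 3, 5, 5 and 10. Whether counting used the strand is not stated, so reads of a member and its antisense partner cannot be told apart. Of the other overlapping genes, those at Rc3h1 held at most 15 counts in a library, and those at Zc3h12b, Zc3h12c, Zc3h12d and Rc3h2 at most 1.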

How the data were processed

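The authors purified AMs, isolated total RNA in TRIzol and prepared NEBNext Ultra libraries. Reads were aligned with HISAT2 2.0.5 and counted per gene with featureCounts. The authors deposited raw counts for each gene as whole numbers, with a column for each library, and DESeq2 is listed in the submitters' processing notes with no role. Build, annotation, strand setting and the handling of multimapped reads are not given in the sources used here, so paralogs may share reads. Coordinates of the members equal those of GENCODE on GRCm38, whose 3′ UTRs were searched. No FPKM value was used.

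Libraries were grouped by the titles in the labels. Genes were filtered with filterByExpr (minimum count 10), which kept 14256 of 54532 genes, scaled by TMM (factors 0.977 to 1.02) and tested with edgeR 4.0.16 in R 4.3.3 (quasi-likelihood, group as the only term, 2 residual degrees of freedom), and p-values were adjusted by Benjamini-Hochberg over these 14256 genes, with a threshold of 0.05. The SE is the size of the log2 fold change over the root of F. TPM was computed from counts and the gene length in the table, so levels, shares and orders between genes depend on those lengths. The floor was 3 counts, 0.153 to 0.190 CPM, which covers counting error only. The test was first run on simulated data. Alternatives were DESeq2 size factors, total counts, scaling on the AM identity genes, other filters, DESeq2 1.42.0, limma-voom (limma 3.58.1), a replicate block and leaving out each library.

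The members, lists and alternatives were chosen with earlier results of these data known, and the UTR words and promoter motifs after the counts were read. Named are all members, up to 4 called genes in each direction of a list by size of change (all called genes where 5 or fewer were), further list genes singled out after their values were seen, and the 4 genes most like Zc3h12c. 1 listed gene is counted with its list and not reported here by name. Pat1b was matched to Patl1 through RefSeq synonyms.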

Additional observations from a re-analysis of the deposited data

How the results depend on the processing

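Directions are relative to TMM scaling. Scaling on the AM identity genes, chosen with earlier results known, gave 11614 genes called instead of 7671, of which 96.1% instead of 53.9% were higher, and raised the median log2 fold change by 0.65. It turned Zc3h12a to 0.054 and Rc3h2 to 0.46, and gave 1 call among the NYN relatives, 14 among the decapping genes and 12 among the exosome genes. DESeq2 called 5858 genes and 6 members. Without each library in turn, 6502 to 7387 genes, 6 to 8 members and 62 to 69 listed genes were called, where the lone library of a group was assumed to vary like the other group. Zc3h12c, Zc3h12d and the ZFP36 genes kept their direction in all 12 alternatives, which adds no support, since the family was chosen on this comparison. The library numbers of the labels gave no sign of pairing (correlation of the library 1 minus library 2 differences between groups -0.0028 over 14256 genes). Such a correlation cannot show that libraries of the same number shared no batch. With the replicate block 7446 genes and 8 members were called. Permuting 2 against 2 libraries cannot reach the threshold, and depth limits only Zc3h12b among the members.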

Other observations

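The heptamer TATTTAT was counted in the 3′ UTRs of all tested genes, after the values were known and as a description with no test. Of 8552 genes without it, 30.1% were higher and 24.8% lower in Tumor by edgeR at an adjusted p of 0.05 (median log2 fold change 0.02). Of 1277 genes with at least 2 heptamers, 29.4% were higher and 34.3% lower (median -0.06), and of 475 genes with at least 3, 26.5% were higher and 37.5% lower (median -0.09). The ZFP36 genes and Rc3h2 belong to the last class, in which the 3 ZFP36 genes were among the higher ones. UTR length moved with the classes, with medians of 845, 2861 and 3265 bases, and its part in the difference was not tested. Medians of -0.06 and -0.09 lie within the shift of 0.65 that scaling on the AM identity genes brings, so their sign depends on the scaling. Such a shift moves all classes alike and leaves the difference between their medians.

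In the Regnase promoters other than that of Zc3h12c, the xenobiotic response element core GCGTG lay from -118 to -114 in Zc3h12a and from -181 to -177 in Zc3h12d, and Zc3h12b held 2 matches to the metal response element core, from -51 to -45 and from -44 to -38. Zc3h12d also held 1 such match from -86 to -80. At 28.2% and 21.4% of all RefSeq windows, both motifs are common.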
